A study of Mus musculus with 2 samples.

Results

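Microglia with DNA replication transcripts, called replication cells here, were picked cell by cell from 2 single-cell RNA-seq libraries of microglia from the hypothalamus. Microglia are the macrophages that reside in the brain. A cell counted as one where at least 3 unique molecular identifiers (UMIs, 1 per captured RNA molecule) summed over 10 replication genes (Mcm2, Mcm3, Mcm4, Mcm5, Mcm7, Rrm2, Tyms, Ung, Cdc6 and Gins2) and fewer than 3 over 9 genes of mitosis (Top2a, Mki67, Cdk1, Ccnb1, Ccnb2, Birc5, Ube2c, Cenpf and Cenpe). The rule found 156 of 9860 kept cells in the plasma-negative library and 316 of 10362 in the plasma-positive library, 472 of 20222 in all. Cells were kept from 500 UMIs and 300 genes upward if no more than 10% of their UMIs were mitochondrial. Because measured UMIs chose the cells, the levels of the 19 rule genes describe the choice and are not results, and the same holds for every contrast between replication cells and the cells without these UMIs.

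Both libraries came from young wild-type mice, several pooled, whose microglia were sorted 20 hours after an injection of plasma protein that carried a dye. The plasma-positive sort held microglia with the dye, and the plasma-negative sort held microglia without it. Both groups had the same genotype and the same injection, and the plasma-negative cells are not from uninjected mice. Each group was 1 library made with the Chromium 3' kit v3.1, so differences have no replicate check, no test was run, and every interval is a 95% interval of counting error only. The libraries held 34534518 and 41984977 UMIs in kept cells, with medians of 3270.5 and 3753 UMIs per plasma-negative and plasma-positive cell.

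A cell that copies its DNA first loads the MCM helicase, a ring of Mcm2 to Mcm7, onto replication origins with the help of Cdc6 and Cdt1. The helicase is switched on with Cdc45 and the GINS complex, and primase, DNA polymerases, the sliding clamp Pcna and the ligase Lig1 then build the new strands. Ribonucleotide reductase (Rrm1 and Rrm2) and thymidylate synthase (Tyms) supply the building blocks. Many of these genes are targets of E2F transcription factors, whose release from retinoblastoma family proteins marks entry into S phase, while Mki67, Top2a and the B cyclins peak later, toward mitosis. Microglia renew themselves in the adult brain by occasional division, which depends on signalling through the Csf1r receptor.

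Of the 4 genes proposed as markers of these cells, Mcm3, Mcm4 and Mcm5 were abundant and Rrm2, the small subunit of ribonucleotide reductase, was not. Mcm3 had 210 UMIs in plasma-negative and 469 in plasma-positive replication cells, a level of 244.5 and 234.2 CPM (UMIs per 1000000 UMIs of the group). Mcm4 stood at 93.1 and 114 CPM and Mcm5 at 51.2 and 51.4 CPM. Rrm2 had 0 UMIs in the 156 plasma-negative replication cells, a count that allows up to 3.49 CPM, and 3 UMIs in the 316 plasma-positive ones. The mitotic cells of the same libraries (at least 3 mitotic UMIs; 26 and 64 cells) held 18 and 45 Rrm2 UMIs, or 127 and 113 CPM. The label of DNA replication thus rests on the helicase genes and not on Rrm2.

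The other helicase subunits of the rule were Mcm7, at 129 and 106 CPM in plasma-negative and plasma-positive replication cells, and Mcm2, at 65.2 and 66.4 CPM. Tyms stood at 51.2 and 42.9 CPM, and the GINS subunit Gins2 at 37.3 and 34.0 CPM. The uracil-DNA glycosylase Ung was at 10.5 and 18.5 CPM. Cdc6, the loading factor, had only 2 and 5 UMIs. The 5 MCM genes together gave 501 of 588 rule UMIs in the plasma-negative and 1147 of 1346 in the plasma-positive replication cells, 85.2% in each.

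Most cells met the rule narrowly. Exactly 3 rule UMIs were found in 100 of the 156 plasma-negative and 155 of the 316 plasma-positive replication cells, 4 in 23 and 67, and 5 or more in 33 and 94, with highest counts of 10 and 12. Just outside the threshold, 396 and 489 cells had exactly 2. At least 3 different rule genes contributed in 89 and 193 cells, and a single gene gave all the rule UMIs in 12 and 25. The mitotic limit touched few cells: 152 and 282 of the replication cells had 0 mitotic UMIs, and 11 and 33 cells with 3 or more rule UMIs were left out because they reached 3 mitotic UMIs.

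The promoters of 3 genes are shown. These genes, all outside the rule, were among the 15 with the highest ratios in replication cells, and all 3 hold the motif described next. Prim1, Rfc4, Cbx5 and Rpa2, of the same 15, did not hold it in the window searched. The motif searched is the core of the E2F binding site, spelled as TTTCCCGC, TTTCGCGC, TTTGCCGC or TTTGGCGC and read on both strands, and capitals mark each match. The sequences are the 250 bases before the start site as RefSeq places it (GRCm38.p6), printed 5′ to 3′ on the strand of the gene. Mcm6, the helicase subunit left out of the rule, has its promoter on the minus strand at chr1:128359706-128359955. Hells, a chromatin remodeller needed for DNA methylation, has it on the plus strand at chr19:38930740-38930989. Cdca7, the partner of Hells, has it on the plus strand at chr2:72475969-72476218.
Mcm6: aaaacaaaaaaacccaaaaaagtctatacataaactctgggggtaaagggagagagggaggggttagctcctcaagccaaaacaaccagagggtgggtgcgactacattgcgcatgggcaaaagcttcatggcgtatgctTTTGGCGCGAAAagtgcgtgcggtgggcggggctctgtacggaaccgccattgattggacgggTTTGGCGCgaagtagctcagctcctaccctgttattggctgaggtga
Hells: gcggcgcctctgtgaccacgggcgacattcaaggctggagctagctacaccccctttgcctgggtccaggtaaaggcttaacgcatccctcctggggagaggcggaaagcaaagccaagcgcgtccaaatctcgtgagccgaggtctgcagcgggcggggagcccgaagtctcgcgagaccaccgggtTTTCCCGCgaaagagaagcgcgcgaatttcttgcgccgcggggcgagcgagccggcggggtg
Cdca7: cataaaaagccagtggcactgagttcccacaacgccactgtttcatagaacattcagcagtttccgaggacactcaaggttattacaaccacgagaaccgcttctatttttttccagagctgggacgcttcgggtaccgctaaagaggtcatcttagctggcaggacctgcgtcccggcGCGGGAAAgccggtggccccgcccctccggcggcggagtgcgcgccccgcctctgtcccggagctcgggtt
The Mcm6 promoter held 3 matches, the first starting 110 bases before the start site, where TTTGGCGC on the strand of the gene overlaps GCGCGAAA, the reverse complement of TTTCGCGC. The single Hells match, TTTCCCGC, started 62 bases before the RefSeq start site. GENCODE M21 starts Hells upstream of that site, at position 38930915, so the match lies inside the gene by that annotation, and the window shown for Cdca7 likewise runs past its GENCODE start. The single Cdca7 match, GCGGGAAA, is TTTCCCGC read on the other strand and started 71 bases before the start site.

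Matches were more frequent among the genes with higher ratios in replication cells than among the other genes compared. In windows of 300 bases around the start site, 23 of the 72 such genes with a RefSeq promoter held a match (31.9%), against 223 of 5069 compared genes that passed the fold in neither direction (4.40%) and 704 of all 27025 genes with a promoter (2.61%). Atad5, Brca2, Cdt1, Dnmt1, Ezh2, Lig1, Msh6, Rbl1, Tfdp1 and Topbp1 also held a match. Prim1, Rfc4, Rpa2, Orc6, Nasp and Pcna did not hold these letters in this window. Among the 46 higher genes that belonged to none of the function lists used here, 9 held one (19.6%). None of the 7 lower genes with a promoter did, which beside a share of 4.40% is no result about so few genes. A match is a stretch of letters and not a measured binding site.

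All 11 microglia markers were detected in the replication cells, and every replication cell had at least 4 of them. Their summed level was 40488 CPM in plasma-negative and 37827 CPM in plasma-positive replication cells, against 40421 and 38563 CPM in depth-matched cells. Depth-matched cells are cells of the same library with 0 UMIs of both gene sets, each paired with the replication cell nearest in total UMIs, within 5%. They were found for 154 and 312 replication cells, with median depths of 4570 and 5524 UMIs. No replication cell had 3 or more markers of any of the 13 lists for other cell types. Markers of neutrophils, T and NK cells and red cells were all at 0 in both libraries. The commonest markers of other cell types were Cd79b in 20.5% and 18.4% of replication cells, Mbp in 10.9% and 13%, and Pecam1 in 10.3% and 15.2%. Depth-matched cells had Cd79b in 22.7% and 23.1%, Mbp in 12.3% and 12.5%, and Pecam1 in 12.3% and 9.94%.

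Depth was tied to the count of replication cells, since a rule on raw UMIs finds more cells where cells are deeper. Their median depth was 4586.5 and 5530.5 UMIs, above the medians of all kept cells. Without any correction for depth, 1.58% of plasma-negative (95% Clopper-Pearson interval 1.35 to 1.85) and 3.05% of plasma-positive cells (2.73 to 3.40) met the rule, a ratio of 1.93 (1.59 to 2.35). After every cell was thinned to 2000 UMIs, 39 of 8249 plasma-negative cells (0.473%, 0.336 to 0.646) and 60 of 9109 plasma-positive cells (0.659%, 0.503 to 0.847) met it. The ratio at equal depth was 1.39 (0.916 to 2.14), and at this depth a difference between the sorts was not detectable beyond counting error. At 3000 UMIs per cell the shares were 1.19% and 1.79% and the ratio was 1.5 (1.11 to 2.03).

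**Figure D1:**
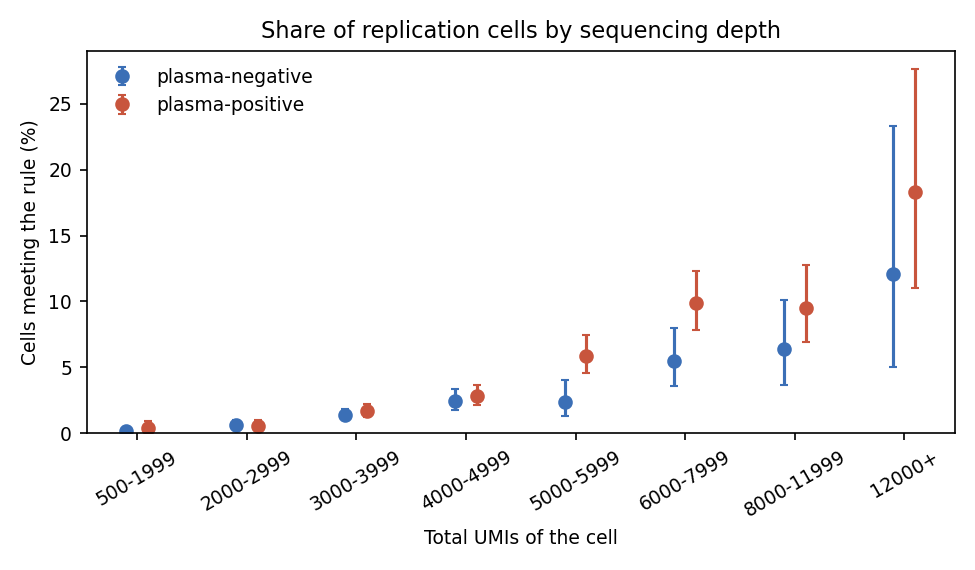
Share of kept cells that met the rule (y axis, percent) in 8 bins of total UMIs per cell (x axis), unthinned, for the plasma-negative (blue) and plasma-positive (red) library; bars are exact 95% binomial intervals. The share rises from 0.124% to 12.1% in plasma-negative and from 0.399% to 18.3% in plasma-positive cells between the shallowest and the deepest bin.

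In the plot of shares by depth, the intervals of the libraries stood apart in 1 of the 8 bins, cells from 5000 to under 6000 UMIs. There the share was 2.39% (1.28 to 4.04) in the plasma-negative and 5.85% (4.52 to 7.42) in the plasma-positive library. In cells from 2000 to under 3000 UMIs it was 0.587% and 0.518%, the only bin where the plasma-negative share was the higher. From 6000 to under 8000 UMIs the shares were 5.46% and 9.91%, and from 8000 to under 12000 UMIs 6.35% and 9.52%. At 12000 UMIs or more they were 12.1% and 18.3%. Each of these pairs had overlapping intervals.

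To measure the rule genes in UMIs that did not choose the cells, the UMIs of each cell were assigned at random to 2 equal parts. The mitotic limit was applied only to the part that chose the cells, so cells with 3 or more mitotic UMIs in all could enter. The 43 plasma-negative cells with 3 or more rule UMIs in the first part had 597 CPM of the 10 rule genes in the other part (468 to 751), against 77.7 CPM in cells with 0. The 106 plasma-positive cells had 604 CPM (528 to 688), against 75.9 CPM. These are ratios of 7.69 (5.98 to 9.75) and 7.96 (6.88 to 9.17), with overlapping intervals. Cells with 1 rule UMI in the first part had 129 and 154 CPM in the other part, and cells with 2 had 222 and 246 CPM. With the parts exchanged, cells with 3 or more had 611 and 587 CPM. Of the chosen cells, 14 of 43 and 22 of 106 had no rule UMI in the other part. Rrm2 stood at 8.18 CPM in the other part of the 43 cells, but had 0 UMIs in the plasma-negative replication cells. In that library a cell over the mitotic limit was thus among those chosen, and the levels are not of replication cells alone. How far such cells raised the levels was not measured. The share of these UMIs that came from free RNA in the droplets was not measured, since the libraries held no cell type known to lack these genes.

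The level of replication genes outside the rule was higher the more rule UMIs a cell had, on both sides of the threshold. These genes are the 4 lists for origin licensing and helicase, polymerases and fork, nucleotide supply, and chromatin assembly. Their summed level in plasma-negative cells with 0, 1, 2, 3, 4 and 5 or more rule UMIs was 3648, 3770, 4000, 4294, 4959 and 6021 CPM. In plasma-positive cells it was 3645, 3785, 4146, 4826, 5455 and 6260 CPM. Cells with 5 or more rule UMIs stood 1.65-fold (1.55 to 1.75) and 1.72-fold (1.66 to 1.77) above cells with 0. Over the same classes Mcm6 went from 8.21 to 145 CPM in plasma-negative and from 8.83 to 125 CPM in plasma-positive cells. Cells with 2 rule UMIs already had 28.7 and 30.7 CPM of Mcm6. These are means over classes of a sparse count, and whether the cells form a separate group was not tested. The classes also differed in depth, with median UMIs from 3138 at 0 to 4818 at 5 or more rule UMIs in the plasma-negative and from 3552 to 6144 in the plasma-positive library. The sum over homeostatic microglia genes went the other way. It was 115540 CPM at 0 rule UMIs and 100502 CPM at 5 or more in the plasma-negative library. In the plasma-positive library it was 118075 and 104050 CPM. The most abundant genes weigh most in this sum, and single genes of it were not followed over the classes.

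**Figure D2:**
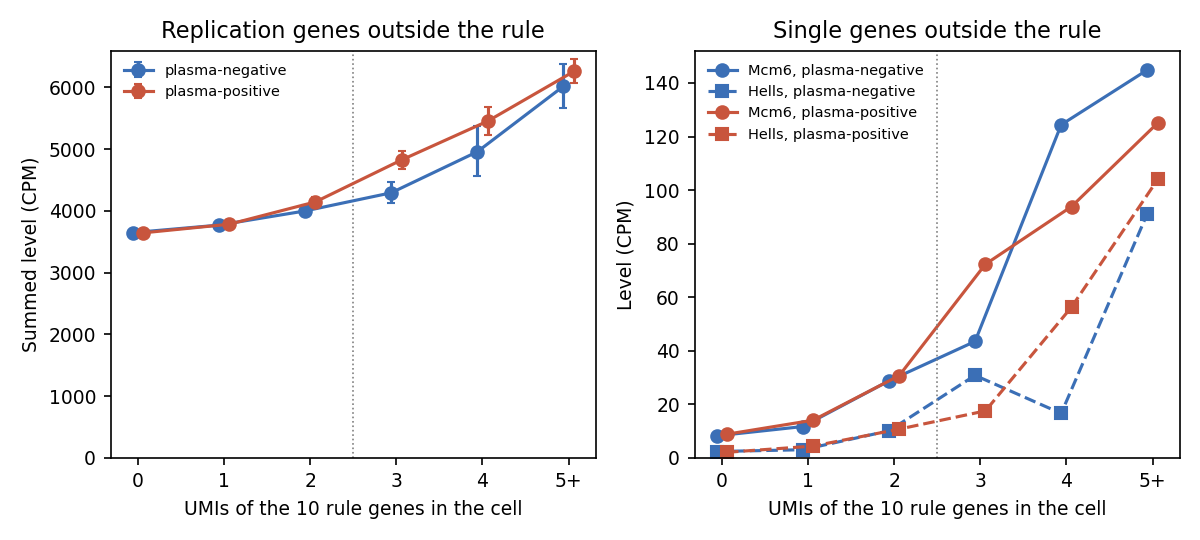
Summed level of replication genes outside the rule (left, CPM with 95% Poisson intervals) and of Mcm6 and Hells alone (right, CPM, no intervals drawn) in cells grouped by their count of rule UMIs (x axis), in the plasma-negative (blue) and plasma-positive (red) library. The dotted line marks the threshold of 3, and the summed level climbs from 3648 to 6021 CPM and from 3645 to 6260 CPM from 0 to 5 or more rule UMIs.

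Against depth-matched cells, the replication cells carried more RNA of the helicase, primase, fork and chromatin genes that the rule did not use. Of 6447 genes with at least 20 CPM, 451 stood at 1.5-fold or more in the plasma-negative library (7.0%) and 279 in the plasma-positive library (4.33%), while 299 (4.64%) and 63 (0.977%) stood as far below. In both libraries 89 were higher (1.38%) and 11 were lower (0.171%). The rule chose this contrast, so these counts are a description. Of the 89 higher genes, 27 belonged to the lists for replication, fork repair or cycle entry and 3 to the list of mitotic genes outside the rule. None of the 11 lower genes belonged to any of the 17 function lists. Of the 6447 compared genes, 9 were in the origin and helicase list, 17 in polymerase and fork, 14 in nucleotide supply and 21 in chromatin assembly. The fork repair list had 10, cycle entry 13 and the mitotic list 8. The share of the 17 lists together among all compared genes was not counted. With so few lower genes, the absence of list genes among them is therefore no result about them.

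Hells was the gene with the highest ratio. The gene lies at chr19:38930915-38971051 on the plus strand (GRCm38, GENCODE M21). It had 36 UMIs in plasma-negative replication cells against 1 in matched cells, and 108 against 1 in the plasma-positive library. The ratios were 36.0 (6.06 to 1461) and 108 (19 to 4299), and their wide intervals come from the single UMI in each matched group. A Hells UMI was present in 14.7% and 21.8% of replication cells.

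Mcm6 completes the helicase ring and lies at chr1:128331590-128359664 on the minus strand. It had 66 UMIs against 7 in the plasma-negative and 187 against 16 in the plasma-positive library, 9.43-fold (4.33 to 24.4) and 11.7-fold (7.0 to 20.8). Both libraries show it far above the matched cells, and 28.8% and 37.3% of replication cells had at least 1 UMI. Cdt1, which loads the ring, had 19 against 3 UMIs (6.33-fold, 1.86 to 33.4) and 45 against 13 (3.46-fold, 1.83 to 6.98). Orc6, a subunit of the origin recognition complex, had 27 against 11 and 56 against 28 UMIs, 2.45-fold and 2.0-fold. These 3 were the members of the origin and helicase list that passed in both libraries, of 9 compared, against 1.38% of all compared genes. The summed level of the list was 1.59-fold (1.35 to 1.89) and 2.04-fold (1.83 to 2.26) that of matched cells.

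At the fork, 8 of 17 compared genes passed in both libraries, against 1.38% of all compared genes, and none was lower. Prim1, the catalytic subunit of primase, had 18 UMIs against 1 in the plasma-negative library and 53 against 1 in the plasma-positive one, ratios of 18.0 (2.84 to 750) and 52.9 (9.10 to 2129). Tipin, which steadies the fork together with Timeless, had 41 against 5 and 90 against 15 UMIs, 8.20-fold (3.24 to 26.6) and 5.99-fold (3.45 to 11.1). Lig1, the ligase that joins Okazaki fragments, had 35 against 9 and 97 against 16, 3.89-fold (1.83 to 9.20) and 6.05-fold (3.55 to 11.0). Rfc4, of the clamp loader, stood at 4.25-fold and 3.58-fold. The single-strand binding subunit Rpa2 stood at 4.33-fold and 3.13-fold, and Atad5, which unloads the clamp, at 3.0-fold and 4.49-fold. Pcna, the clamp, had 47 against 16 and 131 against 58 UMIs, 2.94-fold (1.64 to 5.55) and 2.26-fold (1.64 to 3.13). The most abundant member of the list, Pold4, a small accessory subunit of polymerase delta, was at 0.824-fold and 0.940-fold.

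Genes that package and mark new chromatin formed the other large group. Here 8 of 21 compared stood at 1.5-fold or more in both libraries, against 1.38% of all compared genes. Besides Hells these included its partner Cdca7, at chr2:72476159-72486893 on the plus strand, with 70 against 19 and 190 against 65 UMIs, 3.68-fold (2.19 to 6.48) and 2.92-fold (2.19 to 3.93). Atad2, a chromatin ATPase, had 45 against 12 and 120 against 33 UMIs, 3.75-fold and 3.63-fold. Nasp, a histone chaperone, was at 2.55-fold and 2.43-fold. Dnmt1, the methyltransferase that copies DNA methylation, was at 1.92-fold (1.15 to 3.28) and 3.47-fold (2.38 to 5.17). Hmgb2, a chromatin protein, had 124 against 66 and 341 against 121 UMIs, 1.88-fold and 2.81-fold. The most abundant member, Hmgb1, was at 1.04-fold (0.908 to 1.19) and 1.11-fold (1.03 to 1.21). The summed level of the list was 1.23-fold (1.15 to 1.32) and 1.43-fold (1.37 to 1.49). Its median log2 ratio was 0.37 (-0.13 to 0.85) in the plasma-negative and 0.47 (0.18 to 1.34) in the plasma-positive library. The chromatin genes Ezh2 and Cbx5, outside the lists, were at 6.5-fold (2.73 to 18.8) and 4.06-fold (2.32 to 7.51), and at 3.87-fold and 3.26-fold.

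In the fork repair and checkpoint list 4 of 10 compared genes passed in both libraries, against 1.38% of all compared genes. Brca2, which protects and repairs stalled forks, had 19 against 3 and 58 against 6 UMIs, ratios of 6.33 (1.86 to 33.4) and 9.65 (4.18 to 27.4). Topbp1, which activates the ATR checkpoint kinase, was at 2.79-fold and 3.97-fold, and the mismatch repair gene Msh6 at 3.12-fold and 2.55-fold. The phosphatase gene Cdc25a, of the same list, was at 1.57-fold (0.769 to 3.32) and 1.88-fold. Cycle entry genes passed in 3 of 13 cases, beside the same share over all genes. The retinoblastoma family gene Rbl1 was at 2.26-fold and 2.42-fold, and the E2F partner Tfdp1 at 2.0-fold (0.853 to 5.05) and 2.0-fold. The other was Lin54, at 1.56-fold (0.802 to 3.13) and 1.93-fold. The plasma-negative intervals of Cdc25a, Tfdp1 and Lin54 include 1. Ccnd1, the D-type cyclin, was at 1.10-fold (0.870 to 1.39) and 1.30-fold (1.10 to 1.52). In nucleotide supply only Umps, of pyrimidine synthesis, passed in both libraries among 14 compared, at 2.0-fold and 1.70-fold.

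**Figure D3:**
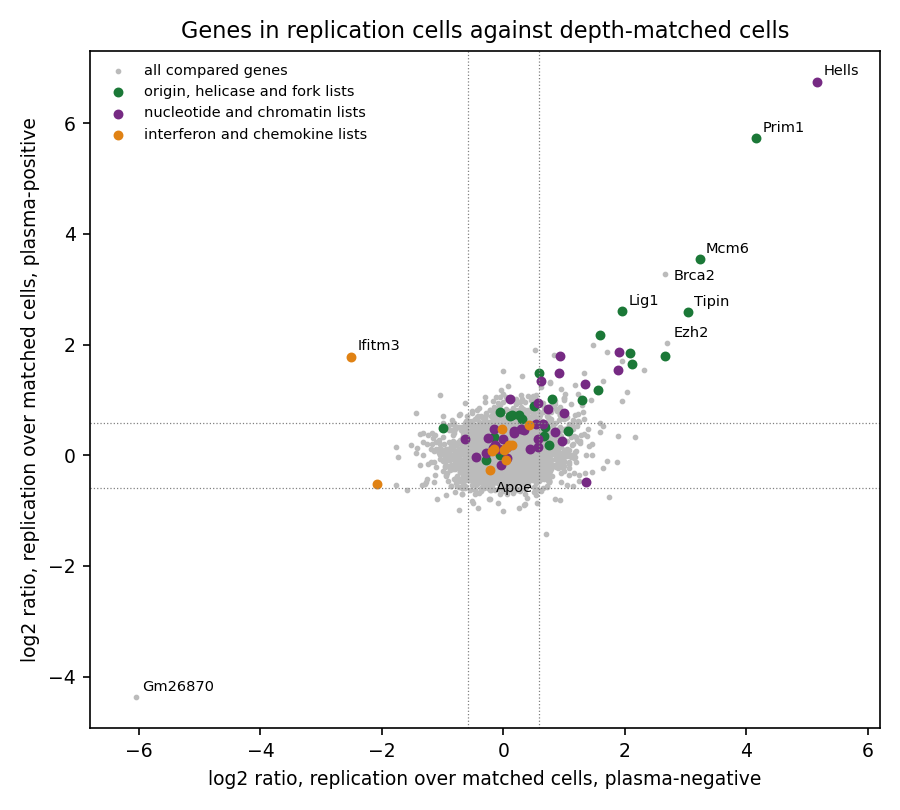
Log2 ratio of replication over depth-matched cells in the plasma-negative (x axis) and plasma-positive (y axis) library for the 6447 compared genes outside the rule, with genes of the function lists in colour; dotted lines mark 1.5-fold. Hells, Prim1, Mcm6, Tipin and Lig1 lie at the upper right, Gm26870 at the lower left and Ifitm3 at the upper left, with -2.50 and 1.78.

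Genes of homeostatic microglia stood close to their level in matched cells. Of the 19 homeostatic microglia genes compared, none passed 1.5-fold in both libraries, with a median log2 ratio of 0.02 and -0.04 against 0.04 and 0.05 over all genes. Their summed level was 0.957-fold (0.948 to 0.966) and 0.930-fold (0.924 to 0.935), or 110097 against 115048 and 109423 against 117707 CPM. Much of this gap lay in Cst3, the most abundant member. It stood at 45878 against 50511 and 48915 against 54960 CPM, 0.908-fold and 0.890-fold. Csf1r, the receptor for the growth factor on which microglia depend, had 2602 against 2556 UMIs and 6003 against 6083, ratios of 1.02 and 0.985. Of the 17 genes for growth factor receptors and their signalling that were compared, none passed in both libraries. Of the CDK inhibitor and p53 pathway lists 2 and 10 genes were compared, and 0 of each passed. Over all genes 1.38% were higher and 0.171% lower in both libraries, so a count of 0 in lists of these sizes is near the background and says nothing about them. In the ribosome assembly list 1 of 19 compared genes passed, Nop58, at 1.73-fold (1.23 to 2.45) and 1.86-fold (1.48 to 2.35).

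Among genes of reactive microglia only Lpl, the lipoprotein lipase of the disease-associated list, passed in both libraries, 1 of 9 compared. It had 27 against 14 and 115 against 50 UMIs, 1.93-fold (0.976 to 3.98) and 2.30-fold (1.63 to 3.27). None of the compared genes of the interferon (7), chemokine (5), immediate early (8) and MHC class II (3) lists passed in the same direction in both libraries, which at those background shares is no result about them. The interferon list had a median log2 ratio of -0.01 (-2.09 to 0.83) over 10 genes in the plasma-negative library. In the plasma-positive library it was 0.60 (0.18 to 0.88) over 19 genes, so the medians are over unlike sets of genes and their intervals overlap. Apoe, the lipid carrier, had 103 against 120 UMIs in the plasma-negative and 1673 against 2880 in the plasma-positive library, 0.858-fold (0.653 to 1.13) and 0.580-fold (0.546 to 0.616). At least 3 Apoe UMIs were present in 14.6% of plasma-positive replication cells (10.9 to 18.9) and 23.4% of matched cells (18.8 to 28.5). A single cell held 436 of the Apoe UMIs of the plasma-positive replication cells.

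**Figure D4:**
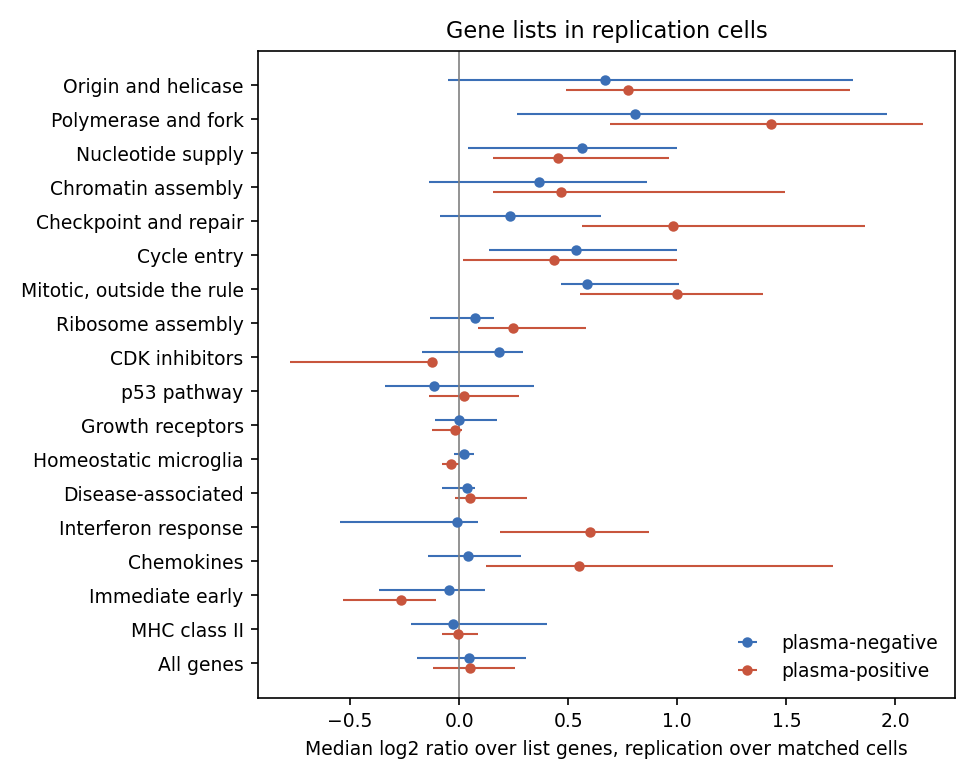
Median log2 ratio of replication over depth-matched cells (x axis) for 17 function lists outside the rule and for all genes with at least 10 CPM, in the plasma-negative (blue) and plasma-positive (red) library; lines run from the lower to the upper quartile over the genes of a list. The lists of origin and helicase (0.67 and 0.78) and of polymerase and fork (0.81 and 1.43) lie to the right of all genes (0.04 and 0.05), and homeostatic genes (0.02 and -0.04) do not.

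All 11 lower genes were called again with TMM scaling, but 4 of the 8 still compared were with the highest doublet scores removed, 3 of 11 with at least 4 rule UMIs and 2 of 9 when cells were thinned. Mxd4, which codes for a partner of Max that opposes Myc, had 50 against 96 UMIs in the plasma-negative and 133 against 220 in the plasma-positive library, 0.521-fold (0.362 to 0.741) and 0.604-fold (0.483 to 0.752). Gm26870 had 1 against 66 and 9 against 186 UMIs, but 64 of the 66 and 149 of the 186 UMIs were in 1 matched cell of each library. The surface receptor gene Ceacam1 had 18 against 30 and 42 against 83 UMIs, 0.600-fold (0.315 to 1.11) and 0.505-fold (0.340 to 0.741). The other lower genes were Rbm10, Dennd4c, Sncaip, Tspan32, Scai, Cyth1 and Miga1, and Chd3, which lay outside the 10 lowest and is named because only 11 genes were lower.

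The mitotic cells held more replication transcripts than the replication cells in the lists outside the rule. The origin and helicase list summed to 452 and 547 CPM in replication and 966 and 945 CPM in mitotic cells of the plasma-negative and plasma-positive library. The polymerase and fork list summed to 1133 and 1320 against 2518 and 3012 CPM, and the chromatin assembly list to 2241 and 2612 against 11385 and 11417 CPM. Single genes differed in this ratio, and those named were chosen after their values were seen. Hells stood at 3.20-fold (1.73 to 5.72) and 2.73-fold (1.96 to 3.78) and Lig1 at 3.81-fold (2.13 to 6.68) and 2.78-fold (1.96 to 3.92) in mitotic over replication cells. Prim1 was at 2.02-fold (0.656 to 5.31) and 2.06-fold (1.19 to 3.43). Mcm6 stood at 76.8 CPM in replication and 77.6 CPM in mitotic cells of the plasma-negative library, and at 94.4 and 78.1 CPM in the plasma-positive library. The ratios of mitotic over replication cells, 1.01 (0.481 to 1.93) and 0.828 (0.547 to 1.22), have intervals that include 1. Hist1h1b, a replication-dependent linker histone gene, had 0 UMIs in replication cells of both libraries and 72 and 251 in mitotic cells. Such histone mRNAs mostly lack the poly(A) tail that the kit primes on, so their counts can understate the RNA present. Pclaf, the PCNA-associated factor, had 0 and 4 UMIs in replication cells and 23 and 117 in mitotic cells. Tk1, thymidine kinase, stood at 4.66 and 5.99 CPM in replication and 113 and 171 CPM in mitotic cells, a ratio of 24.2 (7.82 to 99.6) and 28.6 (15.4 to 58.1). Both groups were chosen from genes of the same programme, so these ratios have no test.

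Among the cyclins, Ccne2, the E-type cyclin of the G1/S transition, stood at 5.82 and 5.99 CPM in replication cells and 169 and 187 CPM in mitotic cells. Ccna2, the S phase cyclin, had 0 and 1 UMIs in replication cells and 18 and 36 in mitotic cells. Ccnd1, by contrast, was at 203.8 and 186 CPM in replication cells and 106 and 90.8 CPM in mitotic cells, 0.519-fold (0.285 to 0.880) and 0.487-fold (0.336 to 0.687). Pcna stood at 59.4 and 66.9 CPM in replication and 176 and 239 CPM in mitotic cells, and Rrm1 at 19.8 and 23.0 against 113 and 164 CPM. The CDK inhibitor gene Cdkn1a had a UMI in 9.62% and 5.38% of replication cells, 7.79% and 7.05% of matched cells, and 65.4% and 54.7% of mitotic cells.

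**Figure D5:**
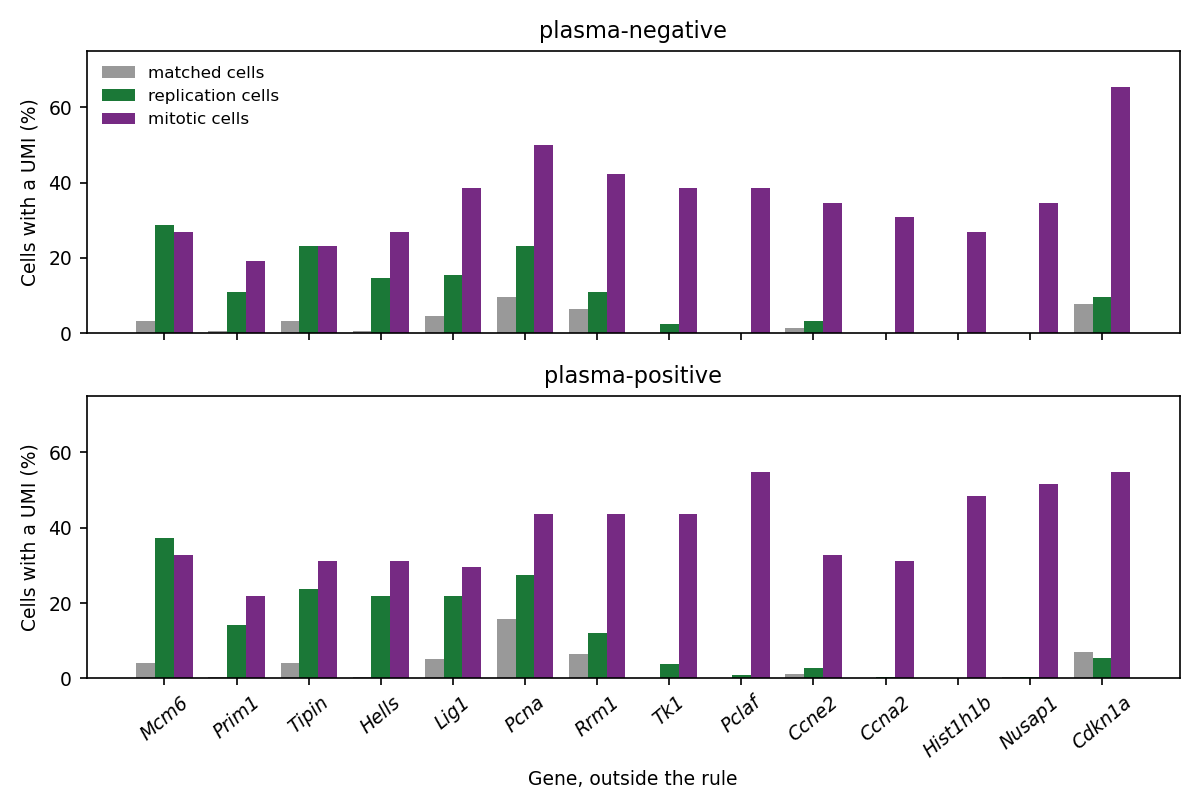
Share of cells with at least 1 UMI (y axis, percent, from 0) of 14 genes outside the rule in depth-matched (grey), replication (green) and mitotic (purple) cells of the plasma-negative (top) and plasma-positive (bottom) library. Mcm6 is present in 28.8% and 37.3% of replication cells, near the mitotic cells, while Ccna2, Pclaf, Hist1h1b and Nusap1 are present in under 1% of replication cells.

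The list of mitotic genes left out of the rule summed to 1.43-fold (1.28 to 1.59) and 1.62-fold (1.51 to 1.74) in replication over matched cells. Tubulin genes held much of that sum. Tuba1b, the most abundant member, was at 384 against 271 and 365 against 250 CPM, 1.42-fold and 1.46-fold. Tubb5 was at 242 and 298 CPM in replication cells and 178 and 203 CPM in matched cells. Other members had few UMIs in replication cells: Nusap1 had 0 and 1, Aurka 3 and 2, and Cdc20 4 and 2. Of 8 compared, 3 passed in both libraries: Stmn1, a regulator of microtubules, at 3.28-fold (1.91 to 5.91) and 3.66-fold (2.75 to 4.92), the condensin gene Smc4, at 2.71-fold and 2.0-fold, and Cks2, a CDK subunit, at 1.53-fold (0.766 to 3.16) and 2.36-fold. In mitotic cells Stmn1 stood at 1432 and 1417 CPM, against 75.7 and 115 CPM in replication cells, 18.9-fold (14.2 to 25.4) and 12.3-fold (10.6 to 14.4).

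Between the sorts, which the rule did not use, chemokine and interferon genes and Apoe were among the genes with the highest ratios in replication cells. Of 6898 genes compared at 20 CPM or more, 274 were at 1.5-fold or more higher in plasma-positive replication cells (3.97%) and 339 lower (4.91%). In depth-matched cells 226 of 6723 were higher (3.36%) and 393 lower (5.85%), and 30 of the higher and 32 of the lower genes were called in both kinds of cell. The 30 are 10.9% of the higher genes in replication cells and 13.3% of those in matched cells. The median log2 ratio of the origin and helicase list and that of the polymerase and fork list were both 0.30, against -0.03 over all genes. In matched cells these medians were -0.15 and -0.03. At the minimum of 10 CPM used for lists, 550 of 8697 genes were higher (6.32%) and 617 lower (7.09%) in plasma-positive replication cells, and 488 of 8512 were higher (5.73%) and 728 lower (8.55%) in matched cells. In replication cells 8 of 32 polymerase and fork genes were higher and 0 lower, and 3 of 13 origin and helicase genes were higher and 1 lower. In matched cells 2 of 17 fork genes were higher and 2 lower, and 1 of 9 origin and helicase genes was higher and 1 lower. This difference between the kinds of cell was not tested. The replication cells of the 2 sorts were not matched to each other in depth or rule UMIs. Their median depth was 4586.5 and 5530.5 UMIs, and 33 of 156 and 94 of 316 had 5 or more rule UMIs. The polymerase and fork list stood at 1034 and 1117 CPM in cells with 3 rule UMIs, and at 1427 and 1576 CPM with 5 or more. The part of this in the ratios between sorts was not tested.

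Of the 19 interferon genes, 16 were at 1.5-fold or more in plasma-positive replication cells at the same minimum (6.32% of all genes), with a median log2 ratio of 2.08. In matched cells 12 of 17 were (5.73% of all genes), with a median of 1.48. Apoe had 110 UMIs in plasma-negative and 1712 in plasma-positive replication cells, 128 against 855 CPM and a log2 ratio of 2.74 (2.46 to 3.03), against 3.36 (3.09 to 3.63) in matched cells. Ifitm3, an interferon-induced membrane protein that blocks virus entry, had 4 and 312 UMIs, a log2 ratio of 5.06 (3.69 to 6.95), against 1.18 (0.42 to 2.02) in matched cells. The 312 UMIs lay in 46 cells, with 42 in a single one. Isg15, a ubiquitin-like interferon response protein, had 10 and 122 UMIs, and Ifi27l2a had 9 and 146. The sort difference of these genes in replication cells against that in matched cells was not tested.

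Several of the highest ratios came from a few cells. Ccl5, a chemokine that attracts T cells, had 1 UMI in plasma-negative and 107 in plasma-positive replication cells, 50 of them in 1 cell, and its log2 ratio of 5.52 has an interval of 3.01 to 10.84. Cxcl10, another such chemokine, had 0 and 111 UMIs, with 99 of them in 1 cell. Ccl12 had 178 and 1085 UMIs, a log2 ratio of 1.39 (1.16 to 1.62), spread over 76 and 185 cells. Galc, a lysosomal galactosidase, had 15 and 105 UMIs in 13 and 81 cells, a log2 ratio of 1.59 (0.80 to 2.47), against 0.22 (-0.45 to 0.93) in matched cells. Cd74, the invariant chain of MHC class II, had 20 and 111 UMIs and the same log2 ratio of 1.25 in replication and in matched cells.

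Genes lower in plasma-positive replication cells had smaller ratios. Lpl had 110 UMIs in plasma-negative and 119 in plasma-positive replication cells, a log2 ratio of -1.11 (-1.49 to -0.72), but 81 of the 110 UMIs were in 1 cell, one of the 2 without a depth match. With every cell weighted equally its log2 ratio was -0.21. The others at 50 CPM or more, among them Ring1, Gin1 and the purine synthesis gene Atic, had log2 ratios from -1.07 to -0.82. Ring1, a Polycomb ubiquitin ligase, had 46 and 51 UMIs, spread over 38 and 45 cells, and in matched cells its log2 ratio was -0.68 (-1.31 to -0.04). Cdkn1a had 20 and 23 UMIs, a log2 ratio of -1.02 (-1.95 to -0.08).

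General measures of the cells differed little. At 2000 UMIs per cell, replication cells had medians of 1167 and 1155 genes and matched cells 1131.5 and 1122. The median share of mitochondrial UMIs was 1.03% and 1.22% in replication cells and 1.10% and 1.33% in matched cells, and that of ribosomal protein genes 8.52% and 9.25% against 8.61% and 9.61%. Doublet scores in the top part set by the expected rate were found in 12.2% and 14.9% of replication cells and 20.8% and 16.3% of matched cells. Their part in the differences above was not tested.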

How the data were processed

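Single-cell RNA was measured in 2 libraries, 1 per sort. The authors deposited unnormalised counts, 1 UMI count for each gene in each cell. Cell Ranger 6.1.2 made them per the file headers, while the submitters' processing notes name version 3.0.1. Genome build, annotation and use of strand were not given in the sources used here; GENCODE M21 (GRCm38) served only for positions. Barcodes were not used here, so those shared between the libraries were not counted. The members and the gene lists were chosen with earlier results of these data known. UMIs were summed per group of cells and scaled to CPM (Python 3.11.15, numpy 2.4.6, scipy 1.17.1). Genes needed 20 CPM in at least 1 group of each library, and lists 10 CPM; 2 listed genes were not found. Intervals are 95%: Clopper-Pearson for shares, Poisson for sums, conditional binomial for ratios. A count of 0 was limited by 3 counts. Named were the 15 highest and 10 lowest genes by the smaller of the log2 ratios, at most 6 passing members and the most abundant member of each list, the 10 highest and 10 lowest genes between sorts at 50 CPM, and Apoe, Ifitm3 and Cdkn1a; genes of the comparison with mitotic cells, and those listed with a promoter match, were chosen after their values were seen. Scrublet (scanpy 1.11.5) called 0 cells in both libraries, so its threshold had not worked; doublets were kept, and the highest scores were removed in an alternative. Calculations were tested on simulated data.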

Additional observations from a re-analysis of the deposited data

Results flagged for a closer look

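In 2 interferon genes the replication cells stood below their depth-matched cells in the plasma-negative library and above them in the plasma-positive library. Ifitm3 had a log2 ratio of -2.50 in the plasma-negative library (3 against 17 UMIs, 11 of the 17 in 1 matched cell) and 1.78 in the plasma-positive library (310 against 90 UMIs). Ifi204 had -0.65 (7 against 11 UMIs) and 0.77 (123 against 72 UMIs). With 1 library per sort the difference between the sorts was not tested.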

How the results depend on the processing

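No paired analysis was possible because a group held a single library, and no replicate could be left out. The share of replication cells in the plasma-negative and plasma-positive library was 0.0993% and 0.133% at 1000 UMIs per cell, 1.19% and 1.79% at 3000, 1.58% and 3.05% unthinned, 2.27% and 2.59% with at least 2 rule UMIs, and 0.0970% and 0.209% with at least 4 (ratio 2.15). The 89 higher and 11 lower genes became 176 and 46 at a minimum of 10 CPM, 9 and 1 at 100 CPM, 240 and 50 with at least 4 rule UMIs, 205 and 70 when thinned to 2000 UMIs, 138 and 24 with mean CPM per cell, and 326 and 102 with at least 5 rule UMIs. The lower genes became 19 with TMM scaling, 17 with the highest doublet scores removed and 17 at 0 mitotic UMIs. Of the 11, those called again were 4 of the 8 still compared with doublet scores removed, 3 of 11 with at least 4 rule UMIs, 2 of 9 when thinned, 1 of 8 with at least 5 and 7 of 11 at 0 mitotic UMIs. Of the 89 higher genes these were 64 of 87, 68 of 81, 57 of 78, 60 of 78 and 68 of 85. The 274 higher and 339 lower genes between sorts became 550 and 617 at 10 CPM, 10 and 11 at 100 CPM, 742 and 872 with at least 4 rule UMIs, and 841 and 882 when thinned. At 100 CPM the polymerase and fork list kept few genes, with medians of 0.21 and -0.0895. With the highest doublet scores removed, the plasma-positive ratio of replication genes at 5 or more to 0 rule UMIs was 1.79. In the plasma-negative library the log2 ratio reversed for Tspan32 (1.81) and Cyth1 (0.000378) with at least 4 rule UMIs, Ceacam1 (1.00) when thinned, and Sncaip (1.17) and Nop58 (-7.8e-05) with at least 5, and in the plasma-positive library the median of the CDK inhibitors did with mean CPM per cell (0.013). The causes were not tested. Of 2131 recomputed values, 1926 stayed within their interval or 1.5 times. Alternatives with at least 5 rule UMIs, with a reference of any cell under 3 UMIs of each set, and both for the ratio by rule UMIs were chosen after seeing the data; with that reference 53 of the 89 higher genes and 1 of the 11 lower genes were called again. List medians already used 10 CPM, so that minimum gave none of its own. Both depth and the threshold limit the count of replication cells, and 100 and 155 of them had exactly 3 rule UMIs.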

Other observations

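A few further genes, in none of the lists and chosen after their values were seen, had 1.5-fold or more in replication over depth-matched cells of both libraries. Lmnb1, which codes for lamin B1, had 20 against 4 UMIs in the plasma-negative and 55 against 19 in the plasma-positive library. Tmpo, of the inner nuclear membrane, had 80 against 32 and 232 against 83 UMIs, 2.5-fold (1.64 to 3.89) and 2.79-fold (2.16 to 3.63). Nrm, which codes for nurim of the same membrane, had 56 against 31 and 118 against 60 UMIs. The abundant chromatin gene Dek, also in no list, had 218 against 121 and 535 against 283 UMIs, 1.80-fold (1.44 to 2.27) and 1.89-fold (1.63 to 2.19).

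Rule UMIs were spread among all kept cells more unevenly than even depth would give. Thinned to 2000 UMIs, their variance over their mean was 1.27 in the plasma-negative and 1.42 in the plasma-positive library. These values include the mitotic cells, which held the highest rule counts, up to 15 and 26 UMIs before thinning. The spread without mitotic cells was not measured.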
